A study of Mus musculus with 4 samples.

Results

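The genes described here are the Wnt ligands, their receptors, antagonists and intracellular signalling genes, with several targets that report on the pathway. Members were chosen by gene symbol, from the families Wnt, Fzd, Sfrp, Dkk, Rspo and Lgr4 to Lgr6 plus 19 single genes, and 54 of the 20555 genes in the deposited table met this rule. No measured value is part of the rule, but the family was put forward with its values in the comparison below known. Counts and p-values are therefore descriptions of these libraries and not independent evidence. RNA was sequenced from bulk mouse mammary tumours in 4 libraries. All carry PyMT, a transgene for polyoma middle T antigen that makes mammary tumours arise. The 2 Control-PyMT libraries are labelled with PyMT alone, and the 2 MYC-PyMT libraries add a Cre recombinase under S100a8, a gene most active in neutrophils and other myeloid cells, and Rosa26-LSL-MYC, from which MYC is expressed once Cre has removed a stop sequence. Age is not given in the labels, nor whether the libraries of a group came from separate mice, so p-values cover only how far these libraries spread, possibly for technical reasons.

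Wnt proteins are secreted ligands that need the acyltransferase PORCN and the carrier WLS to leave the cell. They bind Frizzled receptors with LRP5 or LRP6, which spares beta-catenin from the destruction complex built on AXIN and APC and lets it act with TCF/LEF factors. Targets of that output include inhibitors of the pathway itself, such as Axin2, Nkd1, Notum, Rnf43 and Znrf3. In the mammary gland Wnt signals are known to maintain basal stem cells and to act downstream of progesterone through Wnt4.

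Library totals ran from 31783846 to 34190913 recovered reads, and values are given as scaled counts, in which every read of a library carries the same weight, set by the authors for that library. Markers of the labelled mammary epithelium were present in all libraries, the 8 pan-luminal markers summing to 128890 to 131297 scaled counts in Control-PyMT and 99838 to 106113 in MYC-PyMT. Of 16725 genes that reached 10 scaled counts in at least 2 libraries, 47.9% differed between the groups in limma with a p under 0.05 after Benjamini-Hochberg adjustment. The share was 24.6% for genes lower in MYC-PyMT and 23.3% for genes higher, and for 75.7% of genes both libraries of one group lay above both of the other. Mouse Myc stood at 1832 and 2819.9 scaled counts for the Control-PyMT pair, against 3215 and 2815 for the MYC-PyMT pair (adjusted p = 0.172), and whether reads of the added MYC allele are counted there was not tested.

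The Wnt genes were mostly lower in MYC-PyMT tumours. Of the 54 members, 27 fell and 5 rose, 17 were tested and did not pass, and 5 were below the level filter. On the log2(scaled count + 1) scale the largest falls were those of the secreted antagonist gene Wif1, the ligand gene Wnt4, the feedback inhibitor gene Axin2 and the receptor gene Lgr6. Notum and Wnt6, with 2 and 0 reads in MYC-PyMT, ranked ahead of Lgr6 by edgeR (log2 -5.27 and -7.74, against -5.03) and by DESeq2 (-5.40 and -7.02, against -4.98). The 5 members that rose were Lgr5, Tcf7l1, Fzd7, Fzd8 and Fzd9. Among the 49 tested members 55.1% fell and 10.2% rose, beside the 24.6% and 23.3% of all tested genes given above, and the median log2 change was -1.10 beside -0.02 over all genes. The groups did not overlap for 40 members (81.6%), beside 75.7% of all genes. Of these 49, 5 passed the level filter through Control-PyMT alone and had to be lower in MYC-PyMT (Lef1, Wnt6, Notum, Wnt10a and Wnt10b, of which the first 3 are among the 27), so the shares describe the list and support nothing further. The count of rises was 3 under TMM or upper-quartile scaling and by edgeR, 1 without either Control-PyMT library and 2 without MYC-PyMT replicate 2. In bulk tissue, fewer cells of a type and less RNA per cell cannot be told apart.

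**Figure D1:**
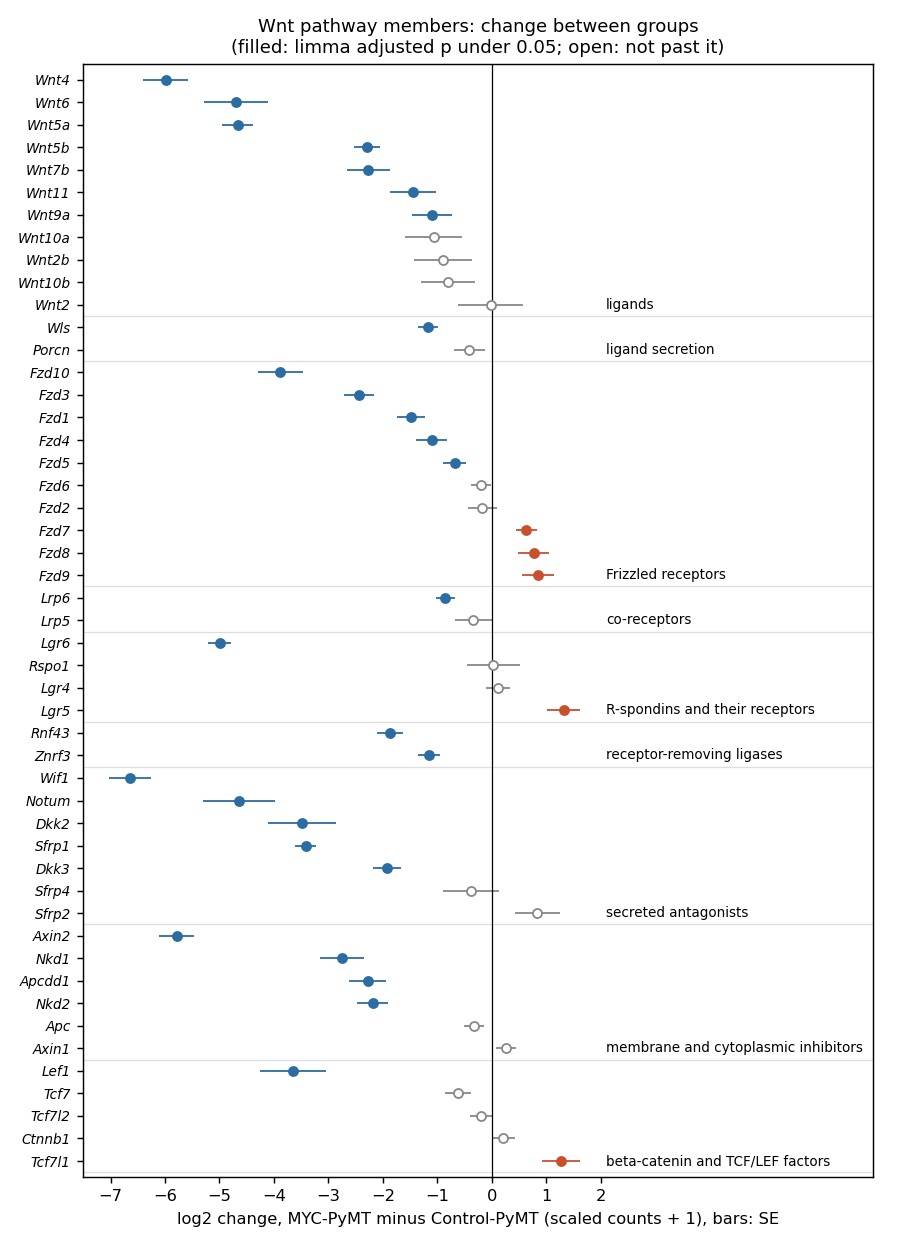
Log2 change (MYC-PyMT minus Control-PyMT, on scaled counts plus 1) of the 49 tested members, grouped by role, with bars of 1 standard error. Blue filled points (27) fell and red filled points (5) rose by limma at an adjusted p under 0.05, and open grey points did not pass.

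Positions are on GRCm38 from the GENCODE M21 annotation. Axin2 (ENSMUSG00000000142.15, chr11:108920349-108950783), a scaffold of the destruction complex and the most widely used reporter of beta-catenin output, stood at 873 and 896 scaled counts for the Control-PyMT pair, against 12.1 and 18.7 for the MYC-PyMT pair. Both MYC-PyMT libraries lay far below both Control-PyMT libraries, whose values were nearly equal. The mean was 57.5-fold higher in Control-PyMT (log2 change -5.79, SE 0.32, limma adjusted p = 3.62e-06). Wif1 (ENSMUSG00000020218.11, chr10:121033960-121100650), a secreted protein that binds Wnt ligands, gave 2104 and 939 scaled counts for the Control-PyMT pair, against 14.1 and 12.1 for the MYC-PyMT pair. The Control-PyMT libraries differed from each other more than the MYC-PyMT ones did, and the groups were far apart. Its mean was 116-fold higher in Control-PyMT (log2 -6.64, SE 0.39, adjusted p = 4.25e-06), and 71.7-fold higher without Control-PyMT replicate 1. Wnt4 (ENSMUSG00000036856.4, chr4:137277489-137299726), the ligand known to act downstream of the progesterone receptor, stood at 699.5 and 660.0 scaled counts for the Control-PyMT pair, against 6.04 and 15.4 for the MYC-PyMT pair. It was nearly silent in both MYC-PyMT libraries, with a mean 63.5-fold below Control-PyMT (log2 -5.99, SE 0.42, adjusted p = 1.03e-05). That fold was 44.2 without MYC-PyMT replicate 1 and 113 without replicate 2. Pgr, the progesterone receptor gene, picked after its values were seen, had 1645 and 1749 for Control-PyMT against 11.1 and 3.30 for MYC-PyMT (adjusted p = 3.94e-06), and its part in the fall of Wnt4 was not tested. Lgr6 (ENSMUSG00000042793.13, chr1:134983301-135105276), an R-spondin receptor, had 4468 and 4469 scaled counts for the Control-PyMT pair, against 155 and 125 for the MYC-PyMT pair. Replicates agreed closely within both groups, and the mean was 31.9-fold higher in Control-PyMT (log2 -4.99, SE 0.21, adjusted p = 1.54e-06).

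Bases upstream of these 4 genes are printed because these were the largest falls on the log2(scaled count + 1) scale, and the choice was made after the values were seen. Windows of 250 bases before the RefSeq start (GRCm38.p6) were searched on both strands for CTTTGAA, its variant CTTTGAT, its variant CTTTGTA and its variant CTTTGTT, which TCF/LEF factors can bind, and for the E-box CACGTG, which MYC with MAX can bind. None of these motifs is contained in another. Printed are the bases that also lie before the GENCODE start, in the direction of the gene, with the E-box in capitals. The positions are chr11:108920099-108920348 on the plus strand for Axin2, chr10:121033754-121033959 on the plus strand for Wif1, chr4:137277385-137277488 on the plus strand for Wnt4 and chr1:135105277-135105526 on the minus strand for Lgr6.
Axin2: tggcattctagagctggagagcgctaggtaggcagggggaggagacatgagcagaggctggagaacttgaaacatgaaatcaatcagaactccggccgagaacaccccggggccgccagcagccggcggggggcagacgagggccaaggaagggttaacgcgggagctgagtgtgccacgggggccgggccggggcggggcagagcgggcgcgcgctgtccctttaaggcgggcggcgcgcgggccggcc
Wif1: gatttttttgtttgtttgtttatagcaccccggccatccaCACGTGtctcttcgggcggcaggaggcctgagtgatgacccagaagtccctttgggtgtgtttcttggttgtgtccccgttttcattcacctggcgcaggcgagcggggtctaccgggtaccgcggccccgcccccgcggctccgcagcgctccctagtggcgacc
Wnt4: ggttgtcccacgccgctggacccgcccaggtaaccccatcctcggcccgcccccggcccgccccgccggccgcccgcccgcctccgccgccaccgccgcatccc
Lgr6: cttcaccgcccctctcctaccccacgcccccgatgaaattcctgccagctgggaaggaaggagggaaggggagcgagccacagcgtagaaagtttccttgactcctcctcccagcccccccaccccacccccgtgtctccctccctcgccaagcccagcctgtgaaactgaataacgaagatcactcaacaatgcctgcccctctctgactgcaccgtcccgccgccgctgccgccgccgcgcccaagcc
No TCF/LEF match was found in the 4 windows, and 1 E-box was found, 205 to 210 bases before the RefSeq start of Wif1, which lies downstream of the GENCODE start given above. A missing match says only that these letters are not in this window. Of all 32851 promoter entries of this length, 14.8% held a TCF/LEF match and 6.02% an E-box. Entries were found for 34 of the 54 members, 44 entries in all, and 5 of these held a TCF/LEF match and 4 an E-box (Fzd9, Lef1, Wif1 and Wnt9a). A match is a description of the letters.

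A TCF/LEF match occurred in the window of 4 members that changed, and the surrounding bases are shown with the match in capitals. Wnt5b, Wnt11 and Lef1 fell, and Fzd7 rose, so the match was found on both sides of the comparison. Positions are chr6:119449440-119449468 (minus strand, at a start inside the gene) for Wnt5b, chr7:98835050-98835078 (plus strand) for Wnt11, chr3:131156136-131156164 (plus strand, also at a start inside the gene) for Lef1 and chr1:59482006-59482034 (plus strand) for Fzd7.
Wnt5b: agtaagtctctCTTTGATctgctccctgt
Wnt11: gacgtgggcggATCAAAGcgacggtccgc
Lef1: caacctcagaaTACAAAGtaggattgcat
Fzd7: tccacagagaaAACAAAGcgcgctattgg
The fifth member entry with a match belonged to Tcf7l2, which did not pass the test.

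Of 14 ligand genes, 7 fell, 4 did not pass and 3 were below the filter (all tested genes: 24.6% lower, 23.3% higher). None rose by limma, and the count was also 0 at an unadjusted p under 0.05, by edgeR and by DESeq2. Wnt5a (ENSMUSG00000021994.14, chr14:28504750-28527448), a ligand that often signals without beta-catenin, stood at 2065 and 1969 scaled counts for the Control-PyMT pair, against 59.4 and 103 for the MYC-PyMT pair. It was high in both Control-PyMT libraries and low in both MYC-PyMT ones, a 24.8-fold difference of means (log2 -4.67, SE 0.29, adjusted p = 5.84e-06). Wnt5b, its close relative, had 2625 and 2069 scaled counts for the Control-PyMT pair, against 391 and 578 for the MYC-PyMT pair. The groups did not overlap, and the log2 change of -2.29 (SE 0.24, adjusted p = 7.99e-05) was smaller than that of Wnt5a, a difference between the genes that was not tested. Wnt7b, an epithelial ligand, had 763 and 590.3 scaled counts for the Control-PyMT pair, against 86.5 and 222 for the MYC-PyMT pair, with MYC-PyMT replicate 2 well above replicate 1. Its fall (log2 -2.27, SE 0.39, adjusted p = 0.00126) did not pass without Control-PyMT replicate 1 (log2 -2.08, adjusted p = 0.0811) or replicate 2 (-2.45, 0.0617). The log2 change was -1.59 without MYC-PyMT replicate 1 and -2.94 without replicate 2.

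Wnt6 gave 21.5 and 28.9 scaled counts in Control-PyMT, which is 57 reads, and 0 reads in both MYC-PyMT libraries. Against a floor of 3 reads per library it was at least 7.98-fold lower in MYC-PyMT (limma adjusted p = 0.000194), and the floor covers counting error only. Wnt6 met the level filter through Control-PyMT alone, and its adjusted p was 0.00025 with no filter. Wnt9a, at 116 and 116 for Control-PyMT against 39.2 and 73.6 for MYC-PyMT, and Wnt11, at 48.6 and 69.6 for Control-PyMT against 16.1 and 26.4 for MYC-PyMT, fell by less than the ligands above and without overlap between groups. Their log2 changes were -1.10 (adjusted p = 0.0348) and -1.45 (adjusted p = 0.0176). Both calls depended on single libraries. Wnt9a did not pass without Control-PyMT replicate 1 (log2 -1.10, adjusted p = 0.175), Control-PyMT replicate 2 (-1.09, 0.179) or MYC-PyMT replicate 1 (-0.65, 0.278), nor by DESeq2 (0.0767). Wnt11 likewise did not pass without those 3 libraries (log2 -1.71, -1.20 and -1.11, adjusted p = 0.0652, 0.135 and 0.0871) or by DESeq2 (0.0619).

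The remaining ligands were rare in every library. Wnt2, a stromal ligand in many tissues, had 13.1 and 32.3 for Control-PyMT against 12.1 and 34.1 for MYC-PyMT, so each group held 1 low and 1 high library (log2 -0.02, adjusted p = 0.985). Wnt2b had 17.8 and 47.6 for Control-PyMT against 19.1 and 12.1 for MYC-PyMT, where only Control-PyMT replicate 2 stood out (log2 -0.90, adjusted p = 0.196). Wnt10a and Wnt10b, which are used in hair and mammary placodes, did not pass (adjusted p = 0.122 and 0.214) at 5.03 to 18.7 scaled counts. Below the filter, Wnt16 had 18 reads over the Control-PyMT libraries and 2 over the MYC-PyMT ones, a ratio of 7.63 with an exact 95% counting interval of 1.83 to 67.8. Wnt9b lay between 5.49 and 14.96 scaled counts, and Wnt7a between 1.01 and 3.30.

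**Figure D2:**
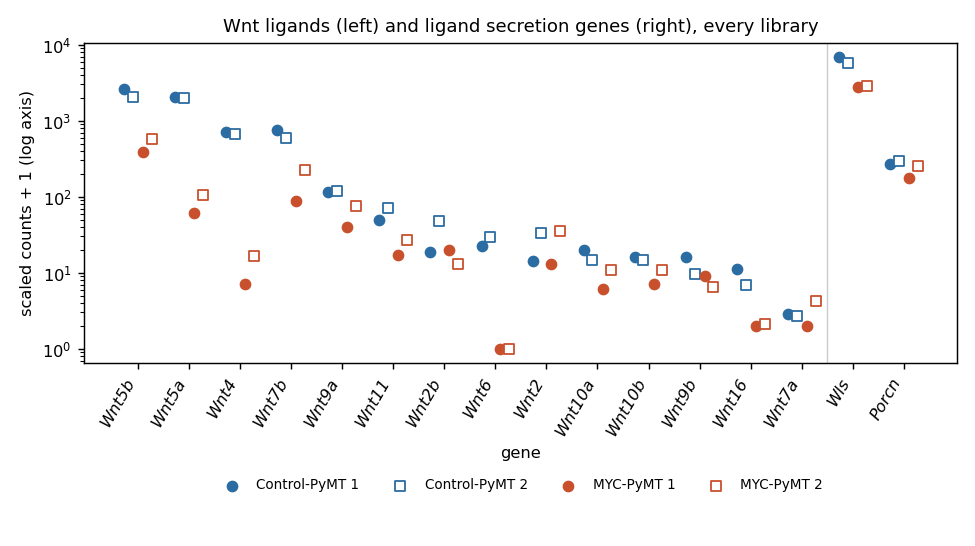
Scaled counts plus 1 (log axis) of the 14 ligand genes, ordered by their Control-PyMT mean, and of Wls and Porcn, with 1 point per library (blue Control-PyMT, red MYC-PyMT). Wnt4, Wnt5a and Wnt6 show the widest gaps between the groups, while Wnt2, Wnt2b and Wnt7a overlap.

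Per kilobase of exon, so that genes can be compared, Wnt5b was the most abundant ligand in every library. It took 59.6% and 55.2% of the summed ligand level in Control-PyMT, against 71.6% and 64.8% in MYC-PyMT. Wnt5a was second in Control-PyMT with 15.9% and 17.8%, and held 3.69% and 3.93% in MYC-PyMT, where Wnt7b was second with 8.58% and 13.5%. The summed ligand level was 1660 and 1413 scaled counts per kilobase in Control-PyMT, against 206 and 336 in MYC-PyMT, a 5.67-fold difference of means. Levels per kilobase rest on merged exon lengths, which need not be those of the transcripts in use.

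Of the 2 genes needed for ligand release, Wls, the carrier that takes Wnt proteins to the cell surface, fell. Its values were 6844 and 5762 scaled counts for the Control-PyMT pair, against 2758 and 2849.6 for the MYC-PyMT pair, which do not overlap (log2 -1.16, SE 0.18, adjusted p = 0.000732). Porcn, which attaches the lipid, had 269 and 290.5 for Control-PyMT against 173 and 256 for MYC-PyMT and did not pass (log2 -0.41, adjusted p = 0.254), although both MYC-PyMT values lay below both Control-PyMT values.

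The 10 Frizzled genes changed in both directions, with 5 lower, 3 higher and 2 not past the test. Over all tested genes 24.6% were lower and 23.3% higher, so 3 rises in 10 lie near the share at large. EdgeR called 1 Frizzled gene higher and DESeq2 called 2. The summed Frizzled level per kilobase was 1676 to 1766 in Control-PyMT and 1633 to 1891 in MYC-PyMT, so the groups overlapped in the sum while its makeup differed. Fzd10 had 195 and 174 scaled counts for the Control-PyMT pair, against 8.05 and 16.5 for the MYC-PyMT pair, the largest fall in the family (log2 -3.88, SE 0.41, adjusted p = 8.55e-05). Fzd3, a receptor best known from planar polarity and axon growth, had 834 and 616 scaled counts for the Control-PyMT pair, against 152 and 113 for the MYC-PyMT pair. Both MYC-PyMT libraries were several times lower than both controls (log2 -2.44, SE 0.27, adjusted p = 0.000108). Fzd1 had 913 and 782 for Control-PyMT against 251 and 363 for MYC-PyMT, again without overlap (log2 -1.48, SE 0.25, adjusted p = 0.00106). Fzd4, which also serves the ligand norrin in vessels, had 283 and 418 for Control-PyMT against 173 and 147 for MYC-PyMT, and Fzd5 had 786 and 845 for Control-PyMT against 549 and 471 for MYC-PyMT. These were the smallest of the 5 falls, with log2 changes of -1.10 (adjusted p = 0.0101) and -0.68 (adjusted p = 0.0244). Fzd4 did not pass once Control-PyMT replicate 2 was left out (log2 -0.82, adjusted p = 0.0981). Fzd5 did not pass without any 1 of the 4 libraries (log2 -0.79 to -0.57, adjusted p = 0.0613 to 0.203), without the variance trend (0.0514) and with the transcript length trend removed (0.054).

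Fzd7, a receptor described in basal mammary cells and in basal-like breast cancer, was the most abundant Frizzled in every library and rose. It had 2907 and 2729.9 scaled counts for the Control-PyMT pair, against 3927 and 4887 for the MYC-PyMT pair, with both MYC-PyMT libraries above both controls (log2 0.64, SE 0.19, adjusted p = 0.0197). Its share of the summed Frizzled level per kilobase was 36.3% and 35.9% in Control-PyMT, against 53.1% and 57.0% in MYC-PyMT. Fzd9 had 113 and 145 for Control-PyMT against 201 and 269 for MYC-PyMT, and Fzd8 had 105 and 129 for Control-PyMT against 190.2 and 208 for MYC-PyMT, both without overlap. Their log2 changes were 0.86 (SE 0.29, adjusted p = 0.0357) and 0.77 (SE 0.28, adjusted p = 0.0471). These 3 rises were small, and each call ended under several alternatives. Without Control-PyMT replicate 1, Control-PyMT replicate 2 and MYC-PyMT replicate 2 in turn, the adjusted p was 0.067, 0.0917 and 0.251 for Fzd7 (log2 0.68, 0.59 and 0.48). In the same order it was 0.174, 0.084 and 0.254 for Fzd9 (log2 0.68, 1.03 and 0.65). For Fzd8 the call ended without any 1 of the 4 libraries (log2 0.62 to 0.92, adjusted p = 0.0794 to 0.215). Fzd9 and Fzd8 also did not pass under TMM scaling (0.0517 and 0.0615), upper-quartile scaling (0.0666 and 0.0852) or edgeR (0.0565 and 0.071), Fzd9 with the length trend removed (0.0599), Fzd8 without the level filter (0.0522) or by DESeq2 (0.0734), and Fzd7 did not without the variance trend (0.0689). Fzd6, at 2353 and 2025 for Control-PyMT against 1931 and 1880.3 for MYC-PyMT, and Fzd2, at 259 and 349.9 for Control-PyMT against 246 and 291 for MYC-PyMT, did not pass (log2 -0.20 and -0.17, adjusted p = 0.409 and 0.62).

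The co-receptor gene Lrp6 had 5624 and 5596 scaled counts for the Control-PyMT pair, against 3187 and 3021 for the MYC-PyMT pair, with close replicates and no overlap (log2 -0.85, SE 0.18, adjusted p = 0.00311). With the transcript length trend removed, the log2 change of Lrp6 was -0.48 (limma adjusted p = 0.0482). Lrp5, its partner gene, had 1618 and 3668 for Control-PyMT against 2381 and 1567 for MYC-PyMT and did not pass (log2 -0.33, adjusted p = 0.454), and the groups overlapped, with Control-PyMT replicate 2 the highest of the 4 libraries.

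R-spondins and their LGR receptors protect Frizzled receptors from removal by the ligases RNF43 and ZNRF3. Lgr5, a stem cell marker in several epithelia, rose while Lgr6 fell. It had 80.4 and 65.4 scaled counts for the Control-PyMT pair, against 169 and 198 for the MYC-PyMT pair, with both MYC-PyMT libraries above both controls (log2 1.32, SE 0.30, adjusted p = 0.0055), but did not pass once Control-PyMT replicate 2 was left out (log2 1.18, adjusted p = 0.0577). Lgr4, broadly expressed, had 3021 and 2501 for Control-PyMT against 2496 and 3532 for MYC-PyMT, where the groups overlapped (log2 0.11, adjusted p = 0.699). Per kilobase, Lgr6 made up 55.6% and 60.2% of the summed LGR level in Control-PyMT, against 4.88% and 2.87% in MYC-PyMT. Lgr4 made up 43.7% and 39.2%, and 91.6% and 94.1%, while Lgr5 stayed at 3.56% or less in every library. The LGR sum was 1173 and 1084 scaled counts per kilobase in Control-PyMT, against 463 and 638 in MYC-PyMT, a 2.05-fold difference of means. Of the R-spondin genes, Rspo1 lay between 9.89 and 12.1 scaled counts in all 4 libraries (adjusted p = 0.967) and Rspo3, below the filter, between 1.10 and 3.40. Rnf43, a ligase gene and pathway target, had 2260.4 and 2936 scaled counts for the Control-PyMT pair, against 863 and 575 for the MYC-PyMT pair. The groups did not overlap, and the log2 change was -1.87 (SE 0.24, adjusted p = 0.000243). Its relative Znrf3 had 982 and 1146 scaled counts for the Control-PyMT pair, against 479 and 476 for the MYC-PyMT pair, with MYC-PyMT libraries that nearly coincided (log2 -1.15, SE 0.21, adjusted p = 0.00154).

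**Figure D3:**
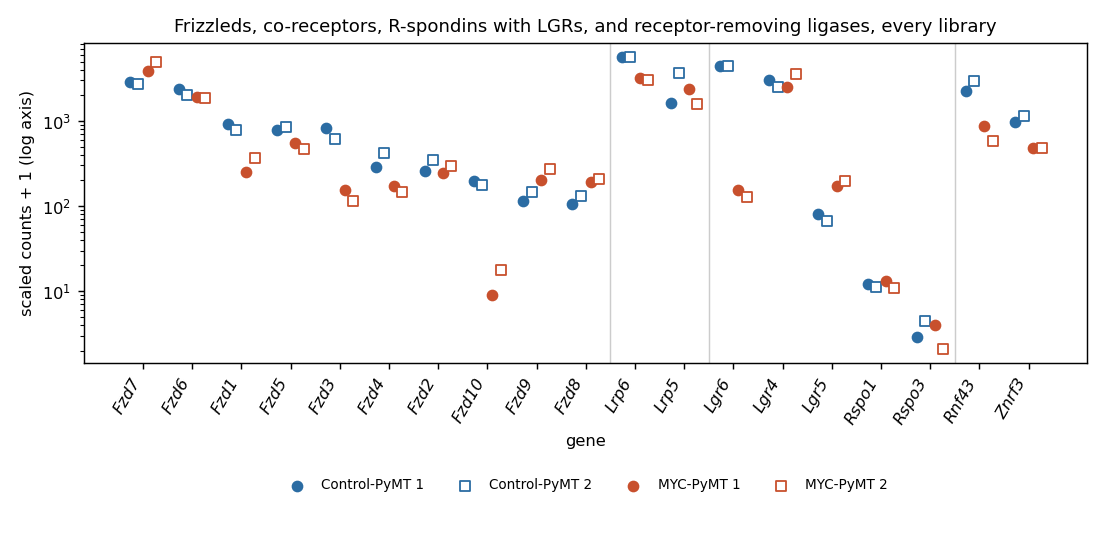
Scaled counts plus 1 (log axis) of the Frizzled genes, co-receptors, R-spondins with LGR receptors, and the ligases Rnf43 and Znrf3, with 1 point per library (blue Control-PyMT, red MYC-PyMT). Lgr6 and Fzd10 drop in both MYC-PyMT libraries, while Fzd7, Fzd8, Fzd9 and Lgr5 lie above the controls.

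Of 8 secreted antagonist genes, 5 fell, 2 did not pass and 1 was below the filter (all tested genes: 24.6% lower, 23.3% higher). None rose by limma, at an adjusted or an unadjusted p under 0.05, or by edgeR, and DESeq2 called 1 higher, Sfrp2. Sfrp1 (ENSMUSG00000031548.7, chr8:23411502-23449632), a soluble Frizzled-related protein that binds Wnt ligands, had 5167 and 5438 scaled counts for the Control-PyMT pair, against 448 and 548 for the MYC-PyMT pair. Replicates were close and the mean was 10.6-fold higher in Control-PyMT (log2 -3.42, SE 0.19, adjusted p = 3.94e-06). Dkk3, of the Dickkopf family but not a typical LRP6 blocker, had 959.5 and 824 scaled counts for the Control-PyMT pair, against 192 and 287 for the MYC-PyMT pair, also without overlap (log2 -1.92, SE 0.26, adjusted p = 0.000299). Dkk2, which binds LRP6, had 175 and 117 scaled counts for the Control-PyMT pair, against 5.03 and 26.4 for the MYC-PyMT pair. The MYC-PyMT libraries differed widely but both lay below the controls (log2 -3.49, SE 0.62, adjusted p = 0.00148), but Dkk2 did not pass when Control-PyMT replicate 1 was left out (log2 -3.20, adjusted p = 0.0881) or replicate 2 (-3.77, 0.067). Its log2 change was -2.40 without MYC-PyMT replicate 1 and -4.58 without replicate 2. Notum, the enzyme that strips the lipid from Wnt proteins and a pathway target, had 98 reads over the Control-PyMT libraries and 2 over the MYC-PyMT ones, a ratio of 41.5 with an exact 95% counting interval of 11.2 to 348 (limma adjusted p = 0.000382). Its 4 values were 57.0 and 31.4 for Control-PyMT against 2.01 and 0 for MYC-PyMT. Notum too met the level filter through Control-PyMT alone (adjusted p = 0.000518 with no filter), and its log2 change of -4.64 was -5.44 without MYC-PyMT replicate 1 and -3.85 without replicate 2.

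Sfrp2, a relative of Sfrp1, did not pass and had unequal libraries. It had 272 and 403 scaled counts for the Control-PyMT pair, against 361 and 971 for the MYC-PyMT pair, so MYC-PyMT replicate 1 lay within the Control-PyMT range and replicate 2 above it (log2 0.84, SE 0.41, adjusted p = 0.119). Without MYC-PyMT replicate 1 the log2 change was 1.55 (adjusted p = 0.000174), and DESeq2 gave 0.99 (adjusted p = 0.0296). Sfrp4 had 21.5 and 62.0 for Control-PyMT against 27.2 and 28.6 for MYC-PyMT and did not pass (adjusted p = 0.56). Sfrp5 had 11 reads over the Control-PyMT libraries and 1 over the MYC-PyMT ones, a ratio of 9.32 (1.35 to 401). Per kilobase, the antagonists summed to 2540 and 2124 in Control-PyMT, against 342 and 682 in MYC-PyMT. Sfrp1 led in Control-PyMT with 46.5% and 58.5% of the sum, followed by Wif1 with 34.1% and 18.2%. Sfrp2 led in MYC-PyMT with 49.1% and 66.2%, and Wif1 held 1.70% and 0.731%.

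**Figure D4:**
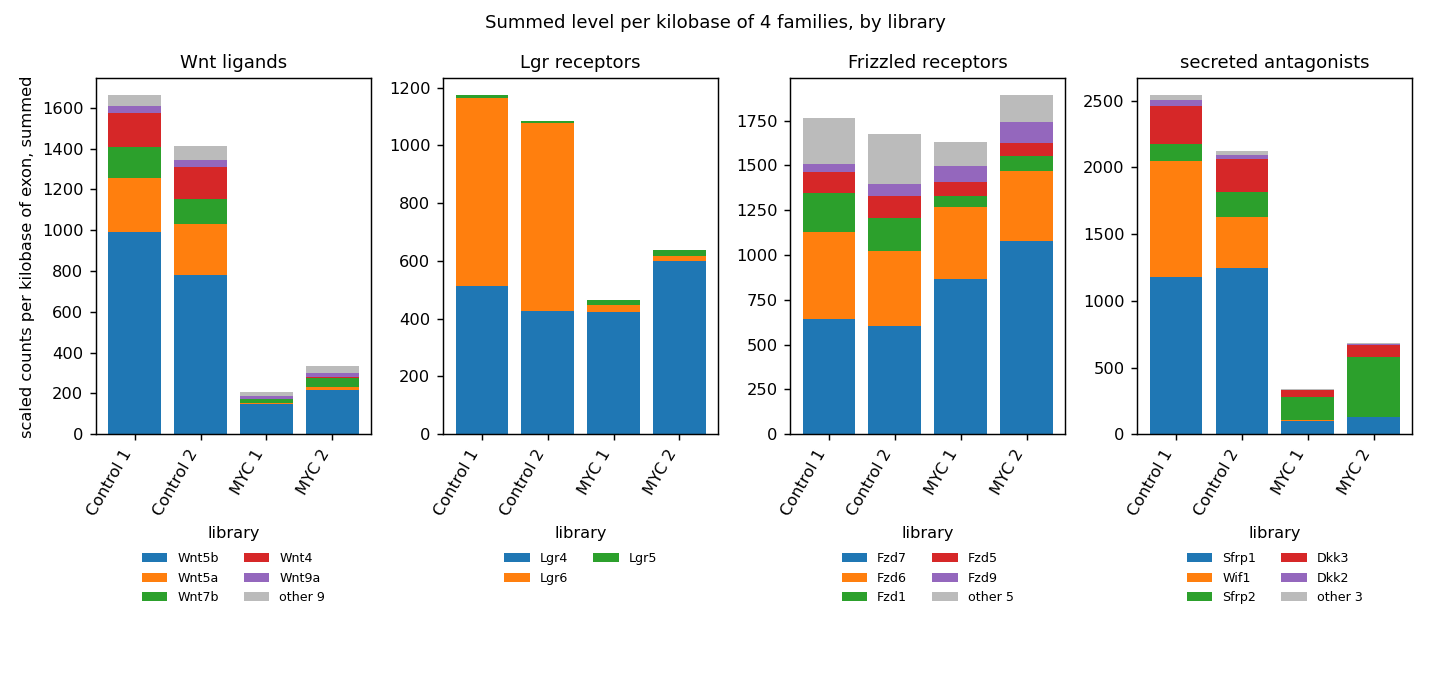
Summed scaled counts per kilobase of exon in each library for the ligands, LGR receptors, Frizzleds and secreted antagonists, stacked by gene with the 5 most abundant genes named (vertical axes differ between panels). Ligand and antagonist sums are lower in both MYC-PyMT libraries, and the Frizzled sums overlap between the groups.

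Among the 6 genes of membrane and cytoplasmic inhibitors, 4 fell and the core scaffold genes Apc and Axin1 did not pass. Over all tested genes 24.6% were lower and 23.3% higher. Nkd1, which binds Dishevelled and is induced by the pathway, had 134 and 142 scaled counts for the Control-PyMT pair, against 14.1 and 27.5 for the MYC-PyMT pair. Both MYC-PyMT values were far below the controls (log2 -2.74, SE 0.40, adjusted p = 0.000475). Nkd2, its more abundant relative, had 2447 and 1732 scaled counts for the Control-PyMT pair, against 347 and 589 for the MYC-PyMT pair, again without overlap (log2 -2.18, SE 0.28, adjusted p = 0.000235). Apcdd1, a membrane protein that binds Wnt and LRP5 and is known from hair follicles, had 522 and 278 scaled counts for the Control-PyMT pair, against 68.4 and 87.9 for the MYC-PyMT pair (log2 -2.28, SE 0.35, adjusted p = 0.000576), with Control-PyMT replicate 1 well above replicate 2 and both above the MYC-PyMT libraries. Axin1, which is not a typical pathway target, contrasted with Axin2. It had 2363 and 2279.7 for Control-PyMT against 2863 and 2706 for MYC-PyMT (log2 0.26, adjusted p = 0.249), and Apc had 4066 and 3891 for Control-PyMT against 3493 and 2879 for MYC-PyMT (log2 -0.33, adjusted p = 0.174).

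Beta-catenin itself (Ctnnb1) was the most abundant member per kilobase in both groups, at a mean of 4525 and 5253. It had 24799.6 and 22189 scaled counts for the Control-PyMT pair, against 24905 and 29643 for the MYC-PyMT pair and did not pass (log2 0.21, SE 0.21, adjusted p = 0.425), and its RNA does not measure the protein. Of its DNA-binding partners, Lef1, which is also a pathway target, had 44.0 and 44.2 scaled counts for the Control-PyMT pair, against 1.01 and 5.49 for the MYC-PyMT pair. The MYC-PyMT libraries held 1 and 5 reads (log2 -3.64, SE 0.61, adjusted p = 0.000999). Lef1 met the level filter through Control-PyMT alone, and its adjusted p was 0.00137 with no filter. Its log2 change was -2.79 without MYC-PyMT replicate 1, -4.49 without replicate 2 and -2.63 with a pseudocount of 5. Tcf7l1, often a repressor of targets, had 101 and 217 scaled counts for the Control-PyMT pair, against 363 and 356 for the MYC-PyMT pair and rose (log2 1.27, SE 0.35, adjusted p = 0.0141). The MYC-PyMT values were close to each other, and the controls were not, replicate 1 being the lower. Without Control-PyMT replicate 1 its log2 change was 0.72 (adjusted p = 0.0806), which did not pass. Tcf7 had 373 and 414 for Control-PyMT against 261 and 251 for MYC-PyMT, where the groups did not overlap but the test was missed (log2 -0.62, adjusted p = 0.0541). It passed with TMM scaling (0.0462), upper-quartile scaling (0.0286) and the length trend removed (0.0324). Tcf7l2 had 859 and 1159 for Control-PyMT against 903 and 848 for MYC-PyMT and did not pass (log2 -0.19, adjusted p = 0.498).

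**Figure D5:**
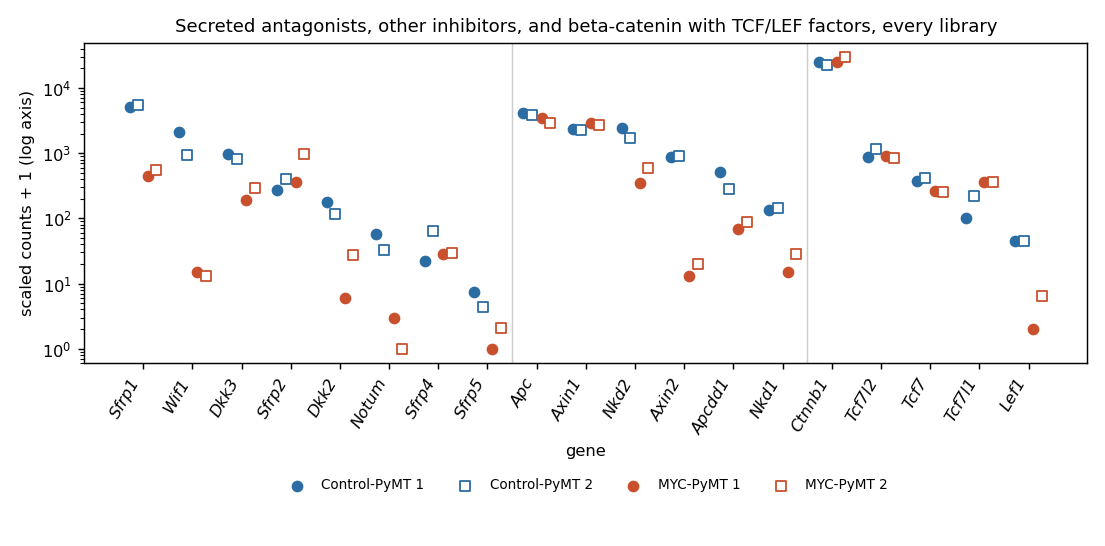
Scaled counts plus 1 (log axis) of secreted antagonists, membrane and cytoplasmic inhibitors, and beta-catenin with TCF/LEF factors, with 1 point per library (blue Control-PyMT, red MYC-PyMT). Wif1, Axin2 and Lef1 separate widely, while Ctnnb1, Axin1 and Apc lie close together.

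The next list holds genes that the pathway is known to induce, other than the members. Of 38 listed targets 29 were tested, and 15 fell, 3 rose and 11 did not pass, beside 24.6% of all tested genes lower and 23.3% higher (median log2 change -0.83 beside -0.02 over all genes). Tnfrsf19, a receptor of the TNF family, fell from 3834 ± 65.0 to 512 ± 265 scaled counts (mean ± SD, n = 2, limma adjusted p = 7.26e-05). Ccnd2, a D-type cyclin, fell from 1482 ± 441 to 258 ± 68.8 (adjusted p = 0.000104), and Tbx3, a mammary transcription factor, from 205 ± 23.2 to 26.2 ± 1.34 (adjusted p = 0.000106). The 3 that rose were Ascl2, a stem cell factor of the intestine, from 26.0 ± 7.67 to 193 ± 6.80 (adjusted p = 0.000173), Plaur, the urokinase receptor, from 134 ± 16.7 to 523 ± 188 (adjusted p = 0.000732) and Fosl1, an AP-1 subunit, from 28.7 ± 7.49 to 62.7 ± 4.64 (adjusted p = 0.0341). Many other signals also control these genes.

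Other genes of the pathway, 63 tested of 69 listed, fell in 29 cases and did not pass in 34. Their median log2 change was -0.62, beside -0.02 over all genes. The shares over all tested genes, for this list and its parts below, were 24.6% lower and 23.3% higher. None of the listed genes rose by limma, with 1 higher at an unadjusted p under 0.05 and 0 by edgeR and DESeq2. With the transcript length trend removed, 2 were higher and 23 lower by limma. The number of falls was 15 without Control-PyMT replicate 2. Secreted modulators fell in 6 of 7 tested cases (median log2 change -4.04). Frzb and Ndp met the level filter through Control-PyMT alone and had to be lower, as did Apc2 among the cytoplasmic and nuclear genes. The counts that hold them describe the list only. Frzb, a relative of the Sfrp genes, fell from 496 ± 36.3 to 5.31 ± 1.82 scaled counts (adjusted p = 4.25e-06), Trabd2b, a membrane protease that inactivates Wnt proteins, from 641 ± 275 to 33.6 ± 0.883 (adjusted p = 2.41e-05), and Ndp, which encodes norrin, from 209 ± 33.0 to 6.73 ± 3.30 (adjusted p = 3.33e-05). Receptor and membrane genes fell in 8 of 17 cases. These included Reck, a cofactor of WNT7 signalling, from 419.9 ± 87.3 to 87.0 ± 23.6 (adjusted p = 0.000295), Ror1, a receptor for WNT5A, from 559 ± 29.2 to 176 ± 2.40 (adjusted p = 0.000399) and Kremen1, a Dickkopf receptor, from 1068 ± 136 to 481 ± 18.8 (adjusted p = 0.00171). Of 39 cytoplasmic and nuclear genes 15 fell and 24 did not pass (median -0.31). The lowest p-values there belonged to Prickle2, a planar polarity gene, from 1494 ± 49.4 to 219.9 ± 40.6 (adjusted p = 2.19e-05), Pygo1, a beta-catenin cofactor, from 199.7 ± 29.8 to 28.6 ± 6.23 (adjusted p = 0.000182) and Tle2, a corepressor, from 909.6 ± 636 to 74.3 ± 6.85 (adjusted p = 0.000221).

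Markers of cell types that could carry these genes differed between the groups in some lists and not in others. Their part in the result was not tested. Among all tested genes 24.6% were lower and 23.3% higher, so a list near these shares changed no more than genes at large. Some markers met the level filter through a single group, which fixed their direction. Through Control-PyMT alone these were Cd3d, Cd3e, Cd3g, Cd8a, Gzma, Gzmb, Krt1, Krt25, Krt27, Krt73, Flg and Lep, which had to be lower. Ngp, Camp and Retnlg met it through MYC-PyMT alone and had to be higher. Counts that hold these markers describe the lists only. Sums are given for Control-PyMT and then MYC-PyMT, and single values in parentheses after a gene are adjusted p-values from limma. Of 10 basal and myoepithelial markers 7 fell and 1 rose, with sums of 48759 to 48987 scaled counts in Control-PyMT and 12222 to 26392 in MYC-PyMT. Acta2 fell from 19724 ± 737 to 2228 ± 387 while Krt14 rose from 3577 ± 1550.1 to 9152 ± 6116 (0.0369). That rise leaned on MYC-PyMT replicate 2, with Krt14 at 4673 and 2481 for Control-PyMT against 4828 and 13476 for MYC-PyMT. Krt5 (0.169) and Krt17 (0.119) did not pass, so the basal markers did not move as 1 block. All 9 tested markers of hormone-sensing luminal cells fell, with sums of 26367 to 27702 and 6819 to 7297, Prlr from 10053 ± 1784 to 4017 ± 77.1 and Gata3 from 5009 ± 1483 to 1669.6 ± 293. Keratinocyte and hair markers fell in 10 of 11 tested cases and 1, Sbsn, rose, from 1116 ± 304 to 4796 ± 1797. Their sums overlapped (4445 to 8007 and 3771 to 6395), Tchh fell from 1646 ± 863 to 64.6 ± 1.18, and Krt25 had 0 reads in both MYC-PyMT libraries. Among fibroblast markers 2 fell, 2 rose and 6 did not pass, with overlapping sums of 23280 to 33092 and 23293 to 34046. Col3a1 and Postn, their most abundant members, had adjusted p = 0.576 and 0.714. Neutrophil markers rose in 5 of 9 tested cases (sums 1074 to 3229 and 2871 to 4105), with S100a8 at adjusted p = 0.26 and S100a9 higher (0.00925). Endothelial markers rose in 6 of 10 with 1 lower (3115 to 4127 and 5295 to 6696), Egfl7 among the risen (0.00172) and Pecam1 not past the test (0.058). Macrophage markers rose and fell in 2 each of 10 (28417 to 28991 and 35456 to 38786), with C1qb not passing (0.397). Lyz2, the largest part of these sums, rose from 11664 ± 1267 to 19444 ± 351 (0.0104). Cd68 also rose (0.000312), while Csf1r (0.0449) and Fcgr1 (0.0337) fell. Of 8 tested T and NK cell markers 7 fell (475 to 565 and 170.1 to 171), Gzmb among them (0.000664), and Cd4 rose (0.00245). Luminal progenitor and alveolar markers fell in 5 of 10 with 3 higher (370675 to 377756 and 144084 to 181517). Csn3, the largest part of these sums, fell from 300280 ± 693 to 95908 ± 23174 (0.00117), and Elf5 did not pass (0.066). The 3 higher were Csn2, from 690 ± 672 to 14194 ± 275, Wap, from 552 ± 194 to 3748 ± 47.0, and Csn1s1, from 2180 ± 702 to 9810 ± 2280. Adipocyte markers rose in 2 of 10, Lpl (6.15e-05) and Fabp4 (0.00243), with 1 lower, Lep (0.000284). Their sums were 2979 to 6827 and 11383 to 11613, and Lpl and Fabp4 were the largest parts of the MYC-PyMT sums. The other 7 did not pass, among them Adipoq (0.916), Plin1 (0.61), Cidec (0.475) and Cfd (0.532). Pan-luminal markers fell in 3 of 8, with Krt8 (0.568) and Epcam (0.198) not past the test.

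Some members share exon bases with a gene on the other strand, and whether the counting used strand is not given in the sources used here. Among the members that changed, these overlaps covered 209 bases of Axin2, 358 of Wnt5a, 324 of Wnt7b, 1208 of Lef1, 1233 of Fzd5, 364 of Wnt11 and 179 of Tcf7l1. Notum shared 708 bases with Notumos and 210 with Myadml2os. Reads of such pairs may be shared, so these values carry that uncertainty, which was not tested.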

How the data were processed

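Poly(A)-selected, strand-marked RNA-seq was made from 4 tumour libraries, 2 per group, per the labels' protocols. The submitters' processing notes name HISAT2, DESeq2 and the build mm10 (GRCm38.p5), without roles. Counter, strand setting and annotation: not given in the sources used here. The authors deposited a table named as scaled counts (unit: signal). All values (100%) were whole multiples of 1 read within 0.001 reads, so reads were recovered; for MYC-PyMT replicate 1, whose step is close to 1, this recovery could not be checked independently, and the count tests rest on it. The value of 1 read ranged from 0.849 to 0.935 in Control-PyMT and from 1.01 to 1.10 in MYC-PyMT.

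The main test was limma 3.58.1 (variance trend) on log2(value + 1), two-sided, Benjamini-Hochberg adjusted over all 16725 genes with at least 10 scaled counts in 2 libraries. Log2 changes on this scale understate low genes. The smallest p an exact permutation test of these groups allows is 0.33. Alternatives included edgeR 4.0.16 and DESeq2 1.42.0 on recovered reads, other scalings, pseudocounts and filters, and leaving out each library, where a lone sample is assumed to vary like the other group. Lengths and positions came from GENCODE M21 (20463 of 20555 IDs matched) and promoters from RefSeq GRCm38.p6. Intervals cover counting error only. The procedure was also run on simulated counts with far fewer changed genes than were called here. That run does not measure its accuracy on these data. All members are named, with values in each library above a group mean of 20 scaled counts; of other lists, the 3 smallest p-values per direction, and of marker lists the 2 highest levels. Other markers named, among them Krt25, Csn2, Wap and Csn1s1, were picked after values were seen. So were Pgr, Apc2, the promoters and motif windows printed and the E-box search. Members and lists were chosen with earlier results of these data known.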

Additional observations from a re-analysis of the deposited data

How the results depend on the processing

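All 32 called members kept their direction under every alternative run, and 21 of them, all lower in MYC-PyMT, also stayed past the threshold in each. These were Apcdd1, Axin2, Dkk3, Fzd1, Fzd3, Fzd10, Lef1, Lgr6, Lrp6, Nkd1, Nkd2, Notum, Rnf43, Sfrp1, Wif1, Wls, Wnt4, Wnt5a, Wnt5b, Wnt6 and Znrf3 (Lef1, Notum and Wnt6 met the level filter through Control-PyMT alone and were not tested with a filter of 50). Among the alternative values of single members, 660 kept direction and call, 42 no longer passed, 6 newly passed and 17 changed sign, all 17 of them in members that were not called. The number of members lower, 27, ran from 21 to 26 when each library was left out, and the number higher, 5, from 1 to 5. The latter was 3 with TMM scaling, 3 with upper-quartile scaling and 3 by edgeR. All genes called, 8010, ran from 5236 to 6480 with each library left out. Other pathway genes lower, 29, ran from 15 to 24, and other pathway genes higher numbered 2 with the length trend removed and 1 at an adjusted p under 0.10, where 5 targets were higher. With the replicate number as a block, 27 members were lower, 5 higher and 8039 genes called; Sfrp2 passed (adjusted p = 0.0133) and Fzd8 did not (0.0578). The labels do not say whether equal replicate numbers pair libraries. Replicate differences correlated at -0.0886 between groups across genes, and this 1 value cannot decide the question. Leaving out a library leaves its group without a spread of its own, so those p-values rest on the other group. With each library left out, log2 changes that changed sign ran from -0.39 to 0.0457 for Fzd2, -0.14 to 0.36 for Lgr4, -0.92 to 0.26 for Lrp5, -0.10 to 0.16 for Rspo1, -1.13 to 0.36 for Sfrp4, -0.40 to 0.02605 for Tcf7l2 and -0.73 to 0.70 for Wnt2. Under other settings, Rspo1 was at -0.00104 with TMM scaling, -0.0768 with upper-quartile scaling and -0.12 with the length trend removed, Lgr4 at -0.00441 with upper-quartile scaling, Tcf7l2 at 0.0416 and Apc at 0.10 with the length trend removed, and Wnt2 at 0.03165 by DESeq2. Upper-quartile scaling moved the median of all genes from -0.02 to -0.13, so small rises are relative to that shift. Why values moved was not tested.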
